A study of Mus musculus with 6 samples.

Results

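The genes described here encode the proteins that write, read and erase N6-methyladenosine (m6A), a methyl mark on adenosines inside messenger RNA. They were Mettl3, Mettl14, Wtap and Rbm15 of the writer complex, the readers Ythdf1, Ythdf2, Ythdf3 and Ythdc1, and the demethylases Fto and Alkbh5. These 10 of the 23896 genes in the deposited counts were chosen by name, for their role in the pathway, and each was followed through its RefSeq transcript with the highest mean count over all libraries. Poly(A) RNA was sequenced from MEL cells, a mouse erythroleukemia line arrested as erythroid precursors, at day 0, before differentiation was induced, and after 2 and 4 days in 2% DMSO. There were 2 cultures per day, described by the submitters as biological replicates, and the 6 libraries shared the same medium, supplemented with serum and an antibiotic and antimycotic mixture. MEL cells are 1 transformed line, and no culture was kept without DMSO for 2 or 4 days, so the effect of DMSO cannot be told apart from that of time in culture.

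The m6A mark is set in the nucleus by a heterodimer in which METTL3 carries the catalytic site and METTL14 holds the RNA. WTAP keeps this pair at nuclear speckles, and RBM15 brings the complex to its RNAs. YTHDC1 reads the mark in the nucleus, where it acts in splicing and export, while YTHDF1, YTHDF2 and YTHDF3 read it in the cytoplasm, where YTHDF2 in particular brings marked mRNAs to deadenylation and decay. FTO and ALKBH5 remove methyl groups from adenosines. The comparisons ask whether the mRNA levels of these proteins change as MEL cells differentiate. The mark itself and the proteins were not measured in these libraries.

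The motifs that set METTL3 and METTL14 apart are shown first, because these mRNAs fell together and encode the core of the writer. Both stretches are written 5′ to 3′ along the mRNA, from the minus strand of GRCm38, and capitals mark the codons of the motif. In Mettl3 the stretch lies in a coding exon at chr14:52297572-52297601 and begins at codon 392, and the capitals encode the catalytic DPPW motif from codon 395. In Mettl14 it lies at chr3:123374796-123374825 and begins at codon 189, and the capitals encode EPPL, the degenerate counterpart, from codon 192.
Mettl3: gtgatggctGACCCACCTTGGgatattcac
Mettl14: attctcctgGAGCCCCCTCTGgaagaatac

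The libraries held between 35294930 and 53899476 counts on transcripts, and the members' own counts from 516 for Mettl14 to 8070 for Alkbh5. All 10 members passed the filter on low counts. All 9 erythroid marker genes examined were present, 8 of them higher and Klf1 lower at day 4 than at day 0 (edgeR adjusted p below 0.05), and Hba-a1, an alpha globin gene, went from 122.7 and 127.8 to 9791 and 11460 library-scaled counts (CPM). Of 10 marker genes of other cell types, 6 had no more than 20 counts in any library. Cd68, Pf4 and Col1a1 were detected and lower at day 4, and Itga2b, a megakaryocyte integrin, was higher (530.8 and 606.3 CPM at day 4 against 208.7 and 227.1 at day 0). The part of such cells in the results below was not tested. The day 0 libraries differed from each other more than those of the other days did. Over 12494 transcripts with a mean count of at least 500, the median gap between replicates was 0.18 on the log2 scale at day 0, 0.09 at day 2 and 0.10 at day 4.

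The positions given for a gene are those of the whole gene in RefSeq on GRCm38, and start sites of single transcripts can differ from its ends. CPM are the deposited counts relative to TMM-adjusted library sizes, and compare one gene between libraries. Fold changes, standard errors and p-values come from edgeR's quasi-likelihood test over 18351 transcripts, with Benjamini-Hochberg adjustment, and an adjusted p below 0.05 is a call. In the first 2 days Ythdf3 and Rbm15 rose and Mettl3, Mettl14 and Alkbh5 fell, so 2 of the 10 members were called higher and 3 lower, whereas 31.9% of all transcripts tested were called higher and 31.6% lower. From day 2 to day 4 only Mettl3 and Mettl14 were called, both lower, beside 16.4% of all transcripts lower and 14.6% higher. No member was called higher in that step by edgeR or by DESeq2, and 2 members, Ythdf3 and Fto, were higher at an unadjusted p below 0.05. Between day 0 and day 4 Ythdf3 and Fto were called higher and Mettl3 and Mettl14 lower, beside 36.2% of all transcripts higher and 36.1% lower. The members' median log2 fold change was 0.01, 0.10 and 0.04 in these comparisons, and the medians over all transcripts were 0.02, -0.0031 and -0.0004. As a group the members were thus called no more often than other transcripts, and what follows describes each one.

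**Figure D1:**
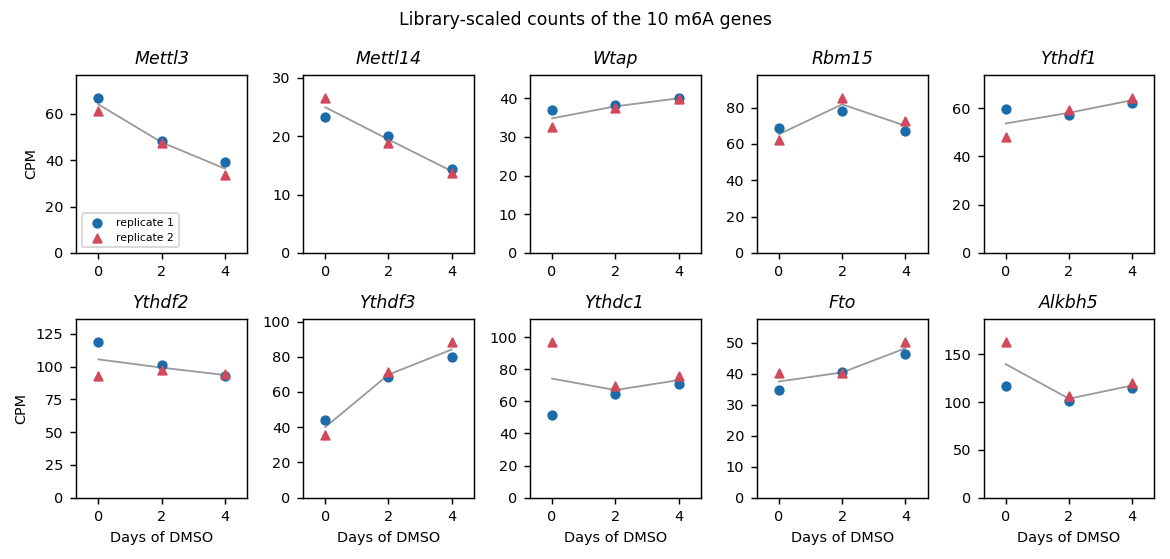
CPM of each member (vertical axis, from 0) against days of DMSO. Circles and triangles are replicates 1 and 2, and the grey line joins the means of 2 libraries. Mettl3 and Mettl14 step down at each day, Ythdf3 steps up, and the day 0 libraries of Ythdc1 lie apart at 51.7 and 96.8 CPM.

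**Figure D2:**
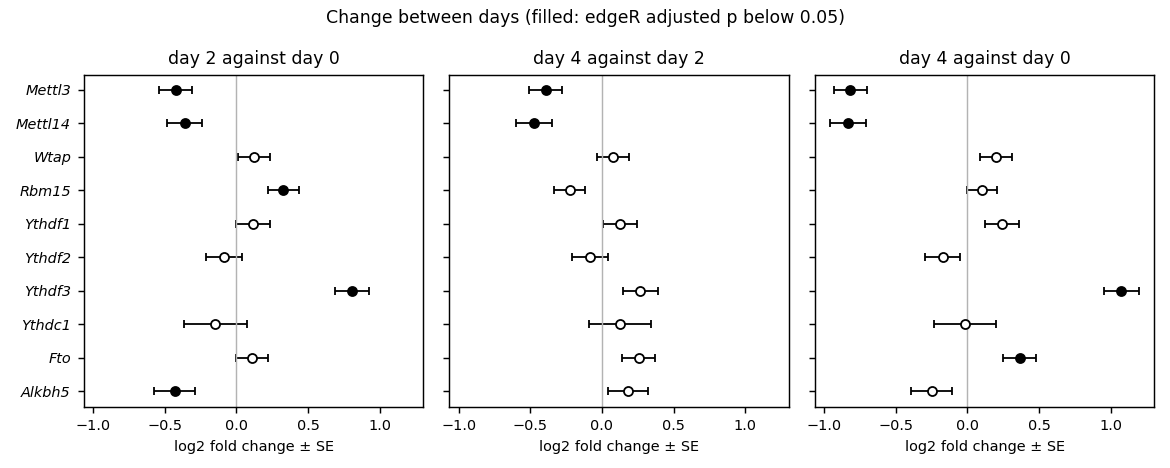
Log2 fold change (horizontal axis) of each member in the 3 comparisons of days. Bars are 1 standard error and filled points had an edgeR adjusted p below 0.05. Mettl3 and Mettl14 are filled and below 0 in every panel, and Ythdf3 has the highest value for day 4 against day 0, 1.07.

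Mettl3 (NM_019721, gene on chromosome 14 from 52294841 to 52308741), the methyltransferase itself, had 67.0 and 61.3 CPM at day 0, 48.2 and 47.3 at day 2, and 39.3 and 33.5 at day 4. No 2 days overlapped, and every day 4 library was below every earlier one. Its log2 fold change from day 0 to day 2 was -0.43 (SE 0.11, adjusted p = 0.00742), from day 2 to day 4 -0.39 (SE 0.12, adjusted p = 0.0256) and from day 0 to day 4 -0.82 (SE 0.12, adjusted p = 6.97e-05), so that it fell by 43.3% in all. The net fall was called whichever library was left out, with log2 fold changes from -0.94 to -0.71. The first step lost its call, at log2 fold changes close to that of all libraries, without day 2 replicate 1 (-0.44, adjusted p = 0.0524) and day 2 replicate 2 (-0.41, adjusted p = 0.0659). The second lost it without day 2 replicate 1 (-0.38, adjusted p = 0.173), day 2 replicate 2 (-0.41, adjusted p = 0.122) and day 4 replicate 2 (-0.28, adjusted p = 0.239). In this bulk RNA, less mRNA per cell and fewer cells that make it cannot be told apart. Of the 2025 exon bases of this transcript, 366 overlap exons of Tox4 on the opposite strand. Across 14 transcripts that lie almost wholly within exons of the other strand, the median read density was 0.0004 of that of the opposite gene, and 11 of the 14 had less than 0.1 of it, so the counts follow strand.

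Mettl14 (NM_201638, gene on chromosome 3 from 123368295 to 123385990), the RNA-binding partner without catalytic activity of its own, had 23.3 and 26.6 CPM at day 0, 20.04 and 18.82 at day 2, and 14.3 and 13.7 at day 4. Again no 2 days overlapped. Its log2 fold change from day 0 to day 2 was -0.36 (SE 0.12, adjusted p = 0.0232), from day 2 to day 4 -0.47 (SE 0.12, adjusted p = 0.0159) and from day 0 to day 4 -0.83 (SE 0.12, adjusted p = 0.000104), so that it fell by 43.9% in all. With each library left out in turn the net log2 fold change stayed between -0.93 and -0.75 and was called each time. The first step lost its call without day 0 replicate 2 (log2 fold change -0.27, adjusted p = 0.0729), day 2 replicate 1 (-0.41, adjusted p = 0.0779) and day 2 replicate 2 (-0.32, adjusted p = 0.157). The second lost it without any one of the day 2 and day 4 libraries, with log2 fold changes from -0.52 to -0.43 and adjusted p from 0.0572 to 0.149.

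Levels of different genes were compared as TPM, which divide counts by transcript length before scaling them within a library. TPM carry no TMM adjustment, so TPM of different days also hold differences in scaling. From day 0 to day 2 mean CPM of Mettl3 went from 64.2 to 47.8, but its mean TPM from 103.7 to 91.4. Mettl3 exceeded Mettl14 by 3.89 and 3.12 times in the day 0 libraries, 3.26 and 3.40 at day 2, and 3.72 and 3.30 at day 4. These ranges overlapped on all days, so the ratio of the core subunits did not move beyond the spread between cultures while their summed level went from 138.3 and 128.5 TPM at day 0 to 85.3 and 72.5 at day 4. Mettl3 had the highest mean TPM of the members at day 0 (110.0 and 97.3), although its range overlapped that of Ythdc1 (58.1 and 105.1), which was above it in replicate 2. It stood seventh at day 4 (67.3 and 55.7), where its range overlapped those of its neighbours Wtap and Rbm15. Mettl14 had the lowest TPM of the 10 on each day (17.5 ± 0.86 at day 4, SD, n = 2). These ranks depend on the length given to Ythdf3, which is described below. With its longest coding transcript Ythdf3 was below Mettl14 at day 0 (mean TPM 25.7 against 29.7). At day 4 it was then below Mettl3 (56.3 against 61.5).

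Wtap, the adaptor of the core pair, is annotated with transcripts for a full-length and a truncated protein, and both were counted. The transcript with the highest count (NM_001113533, gene on chromosome 17 from 12966799 to 12992543) has 8 exons and encodes 396 residues, while NM_175394 and NM_001113532 have 6 exons and encode 151. Their coding sequences share 452 bases and then part, as shown here on the minus strand of GRCm38, 5′ to 3′, with the bases after the parting in capitals. Of the capitals of NM_175394 only the first is coding, since its coding sequence has 453 bases. The stop codon TAA and untranslated bases follow it. The stretch of NM_175394 is contiguous at chr17:12975281-12975310, whereas that of NM_001113533 crosses an exon junction within the span from 12969545 to 12975310.
Wtap NM_001113533: gtttacgcctgatagCCAAACAGGCAAAAA
Wtap NM_175394: gtttacgcctgatagGTAAACAAATCATAC

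Wtap NM_001113533 had 36.9 and 32.7 CPM at day 0, 38.3 and 37.6 at day 2, and 40.1 and 39.8 at day 4. The days did not overlap, yet no comparison was called, and the net log2 fold change was 0.20 (SE 0.11, adjusted p = 0.127). Without day 0 replicate 1 it was 0.29 (adjusted p = 0.0226). NM_175394 had a net log2 fold change of -0.08 (SE 0.13, adjusted p = 0.618). The count of the full-length transcript divided by that of NM_175394 was 1.38 and 1.51 at day 0, 1.51 and 1.59 at day 2, and 1.70 and 1.78 at day 4. Each day lay above the one before, by little between days 0 and 2 (1.506 against 1.512), and the transcripts share 460 exon bases, so these counts are not separate measurements and the ratio was not tested. Also, 26.9% of the 31-base words of NM_001113533 occur in other genes, mostly in the processed pseudogene Gm14292, so its level is uncertain. Relative to the falling Mettl3, the TPM of Wtap went from 0.54 and 0.53 at day 0 to 0.78 and 0.79 at day 2 and 1.01 and 1.18 at day 4, with no overlap between days.

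Rbm15 (NM_001045807, gene on chromosome 3 from 107305511 to 107334460), an adaptor known for guiding the writer to its RNAs, peaked at day 2. It had 68.5 and 62.1 CPM at day 0, 78.2 and 85.4 at day 2, and 67.1 and 72.8 at day 4. Both day 2 libraries were above all others, and days 0 and 4 overlapped. The log2 fold change from day 0 to day 2 was 0.33 (SE 0.11, adjusted p = 0.0208), from day 2 to day 4 -0.22 (SE 0.11, adjusted p = 0.135) and from day 0 to day 4 0.10 (SE 0.11, adjusted p = 0.413). The early rise lost its call without day 0 replicate 2 (log2 fold change 0.25, adjusted p = 0.0571), day 2 replicate 1 (0.39, adjusted p = 0.0526) and day 2 replicate 2 (0.26, adjusted p = 0.169). The difference between the second and the first step was tested for every member, and Rbm15 was the only one called (-0.55, SE 0.18, adjusted p = 0.0435), beside 16.9% of all transcripts called lower and 13.1% higher. No member was called higher in that test by edgeR or DESeq2, and 1, Alkbh5, was higher at an unadjusted p below 0.05. The call of Rbm15 was lost with DESeq2 (-0.51, adjusted p = 0.0583) and without any one of the day 2 and day 4 libraries (adjusted p from 0.0702 to 0.338).

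Among the cytoplasmic readers, Ythdf3 (gene on chromosome 3 from 16183148 to 16217037) rose by 110.5% from day 0 to day 4, while neither Ythdf1 nor Ythdf2 was called in any comparison. Ythdf3 had 44.2 and 35.8 CPM at day 0, 68.6 and 71.1 at day 2, and 80.2 and 88.2 at day 4, and no 2 days overlapped. Its log2 fold change from day 0 to day 2 was 0.81 (SE 0.12, adjusted p = 0.000185), from day 2 to day 4 0.27 (SE 0.12, adjusted p = 0.113) and from day 0 to day 4 1.07 (SE 0.12, adjusted p = 1.31e-05). Leaving out each library in turn gave 0.65 to 0.97 for the first step and 0.92 to 1.23 for the net change, called each time, but the second step was called without day 0 replicate 1 (0.26, adjusted p = 0.0208) and without day 0 replicate 2 (0.26, adjusted p = 0.0206). Most of the rise was thus in the first step, although the steps did not differ by the test (-0.54, SE 0.21, adjusted p = 0.0714). Without day 0 replicate 1 that difference was called (-0.70, adjusted p = 0.003).

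Ythdf1 (NM_173761, gene on chromosome 2 from 180904377 to 180920936), known for promoting translation of marked mRNAs, had 59.5 and 47.8 CPM at day 0, 57.1 and 59.0 at day 2, and 62.3 and 64.3 at day 4. Both day 4 libraries were above all others, and days 0 and 2 overlapped. Its net log2 fold change was 0.24 (SE 0.12, adjusted p = 0.0922). Ythdf2 (NM_145393, gene on chromosome 4 from 132184916 to 132212256), the decay reader, had 118.5 and 92.7 CPM at day 0, 101.4 and 97.2 at day 2, and 92.8 and 94.5 at day 4, with a net log2 fold change of -0.17 (SE 0.12, adjusted p = 0.228). Days 0 and 4 overlapped, and the day 0 libraries decided whether either gene was called. Without day 0 replicate 1 Ythdf1 was higher at day 2 (0.28, adjusted p = 0.0239) and at day 4 (0.40, adjusted p = 0.00251), and without day 0 replicate 2 Ythdf2 was lower at day 2 (-0.26, adjusted p = 0.0325) and at day 4 (-0.35, adjusted p = 0.00552). The 31-base words of Ythdf1 and Ythdf3 occur in no other gene, whereas 14.3% of those of Ythdf2 do, most of them in the processed pseudogene Gm6823.

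Since these paralogs read the same mark, their mix was computed within each library, which needs no scaling between libraries. Ythdf3 made up 22.6% and 23.0% of the summed TPM of Ythdf1, Ythdf2 and Ythdf3 at day 0, 33.6% and 34.6% at day 2, and 37.4% and 39.0% at day 4. Over the same days Ythdf2 went from 46.9% and 46.1% to 38.4% and 36.6% and then 33.5% and 32.4%. Ythdf1 had 30.52% and 30.85% at day 0, 28.04% and 28.81% at day 2, and 29.14% and 28.57% at day 4. Its day 0 shares lay above those of the later days, which overlapped each other. Neither the shares of Ythdf3 nor those of Ythdf2 overlapped between days. The summed TPM of Ythdf1, Ythdf2 and Ythdf3 was 203.5 and 156.4 at day 0, 249.1 and 248.2 at day 2, and 232.6 and 237.8 at day 4. Unlike the shares, these sums depend on scaling between libraries and carry no TMM adjustment, so they were not compared between days. The share of Ythdf3 depends on the length given to it. The transcript with its highest mean count, NR_027375, is of RefSeq's non-coding class. The length used for it, 3196 bases, is that of the GENCODE transcript linked to it, which has 1767 coding bases. NM_001145919 has 2055 bases outside that transcript, yet the counts of NR_027375 were within 0.965% of those of the coding transcripts. Which length matches the bases that were counted was not tested. With the length of the longest coding transcript, NM_001145919 (5102 bases), the share was 15.6% at day 0, 24.5% at day 2 and 27.9% at day 4. At day 4 Ythdf3 had the highest TPM of the members (86.9 and 92.8), but with the coding length it stood seventh (54.5 and 58.2). The fold changes do not depend on this length.

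**Figure D3:**
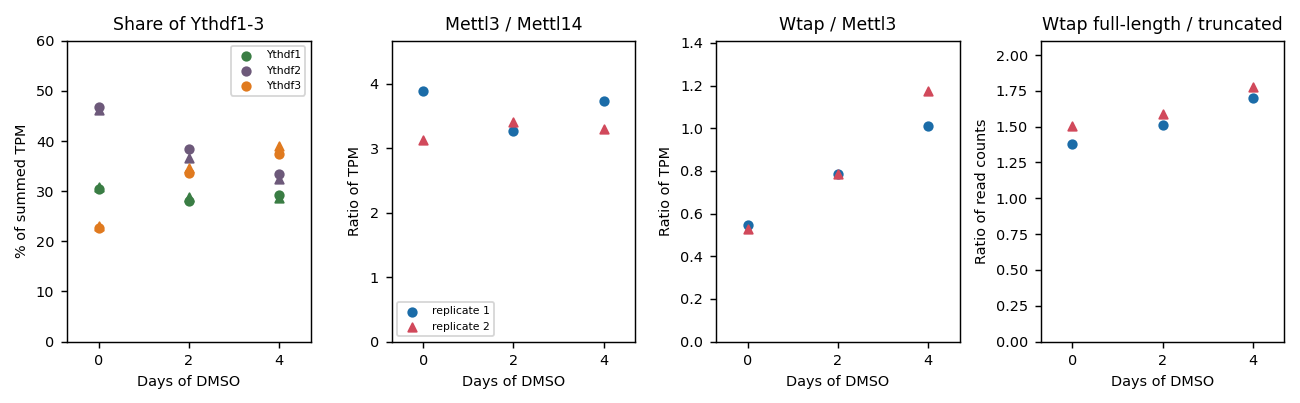
Shares and ratios computed within each library (vertical axes from 0) against days of DMSO, with circles for replicate 1 and triangles for replicate 2. From left to right are the shares of Ythdf1, Ythdf2 and Ythdf3 in their summed TPM, the TPM ratios of Mettl3 to Mettl14 and of Wtap to Mettl3, and the count ratio of the full-length Wtap transcript to the truncated NM_175394. Ythdf3, with a length of 3196 bases, goes from 22.8% to 38.2% on average. Wtap over Mettl3 goes from 0.54 to 1.09, while Mettl3 over Mettl14 stays between 3.12 and 3.89.

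Ythdc1 (NM_177680, gene on chromosome 5 from 86803980 to 86836659), the nuclear reader, had 51.7 and 96.8 CPM at day 0, 64.5 and 69.8 at day 2, and 70.8 and 75.9 at day 4. The later libraries all lay between the day 0 libraries, whose counts were 2109 and 4806. No comparison was called, and the net log2 fold change was -0.02 (SE 0.22, adjusted p = 0.94). Its direction rested on 1 library. Without day 0 replicate 1 the gene fell in the first step (-0.53, adjusted p = 0.000418) and from day 0 to day 4 (-0.40, adjusted p = 0.00266), and without day 0 replicate 2 it rose (0.37, adjusted p = 0.00779, and 0.49, adjusted p = 0.000828). The day 0 gap of 0.90 on the log2 scale was matched or exceeded by 0.92% of the 12494 well-counted transcripts, while at days 2 and 4 the gaps of Ythdc1 were 0.11 and 0.10. The transcript shares 631 of its 2960 exon bases with Gm43055, a non-coding RNA annotated on the same strand, so reads there cannot be assigned to one of them.

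**Figure D4:**
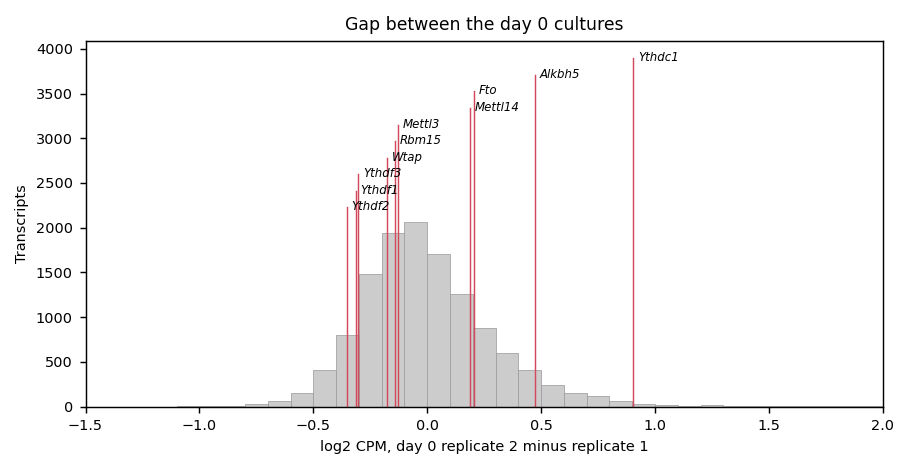
Difference in log2 CPM between day 0 replicates 2 and 1 (horizontal axis) for 12494 transcripts with a mean count of at least 500 (grey bars, number of transcripts), with the members as red lines whose heights carry no value. Ythdc1 lies at 0.90 and Alkbh5 at 0.47, and the other members lie between -0.35 and 0.20.

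Of the erasers, Fto rose and Alkbh5 fell early, each by a call that single libraries decided. Fto (NM_011936, gene on chromosome 8 from 91313367 to 91668433) had 34.8 and 40.1 CPM at day 0, 40.5 and 40.2 at day 2, and 46.3 and 50.0 at day 4. No 2 days overlapped, though days 0 and 2 nearly touched. The log2 fold change was 0.11 for the first step (SE 0.11, adjusted p = 0.425), 0.26 for the second (SE 0.11, adjusted p = 0.112) and 0.36 over both (SE 0.11, adjusted p = 0.0137). The net rise lost its call without day 4 replicate 2 (0.30, adjusted p = 0.118). The second step was called without day 0 replicate 1 (0.25, adjusted p = 0.0273) and without day 0 replicate 2 (0.25, adjusted p = 0.0274).

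Alkbh5 (NM_172943, gene on chromosome 11 from 60537683 to 60558512) had 117.1 and 162.6 CPM at day 0, 100.8 and 106.5 at day 2, and 114.7 and 120.4 at day 4. Both day 2 libraries were below both day 0 libraries, and days 0 and 4 overlapped. The log2 fold change from day 0 to day 2 was -0.43 (SE 0.14, adjusted p = 0.021), from day 2 to day 4 0.18 (SE 0.14, adjusted p = 0.359) and from day 0 to day 4 -0.25 (SE 0.14, adjusted p = 0.134). The early fall lost its call without day 0 replicate 2 (-0.18, adjusted p = 0.132), day 2 replicate 1 (-0.39, adjusted p = 0.134) and day 2 replicate 2 (-0.47, adjusted p = 0.0815), while without day 0 replicate 1 the net fall was called (-0.47, adjusted p = 0.000688), as was the difference of the steps (0.83, adjusted p = 0.000894). Day 0 replicate 2 was the higher library for Alkbh5 by 0.47 on the log2 scale, a gap that 9.18% of transcripts reached. Per transcript length, Alkbh5 exceeded Fto by 2.09 and 2.52 times at day 0, 1.55 and 1.65 at day 2, and 1.54 and 1.497 at day 4. Day 0 stood apart. The summed TPM of both erasers was 113.9 ± 19.1, 114.0 ± 1.76 and 116.2 ± 2.53 (SD, n = 2) at days 0, 2 and 4. Without TMM factors these sums cannot show whether the joint level changed between days. Mean CPM went from 139.8 to 103.6 and 117.5 for Alkbh5, and from 37.4 to 40.4 and 48.2 for Fto.

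The early calls also depended on how libraries were scaled. With total counts alone, in place of TMM factors, the median over all transcripts shifted by 0.22 for day 2 against day 0 and by 0.11 for day 4 against day 0. All transcripts called for day 2 against day 0 then split into 7593 higher and 4187 lower, where TMM factors gave 5847 and 5792, and the members into 5 higher and 0 lower. Under that scaling the first-step falls of Mettl3 (-0.23, adjusted p = 0.122), Mettl14 (-0.16, adjusted p = 0.27) and Alkbh5 (-0.23, adjusted p = 0.161) were not called, although relative to the shifted median they were -0.45, -0.38 and -0.45. The net falls of Mettl3 (-0.70, adjusted p = 0.000282) and Mettl14 (-0.72, adjusted p = 0.000294) and the net rise of Ythdf3 (1.19, adjusted p = 4.7e-06) were called under both scalings.

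A list of 28 other genes of the pathway was read beside the members, and 26 of them could be tested. Zcchc4, a ribosomal RNA methyltransferase, had at most 4 counts in a library and Igf2bp1, a reader, at most 2. Between day 0 and day 4, 13 of the 26 were called lower and 2 higher, beside 36.1% and 36.2% of all transcripts. In the first step 10 were lower and 1 higher, beside 31.6% and 31.9% of all transcripts, and in the second 7 were lower and 1 higher, beside 16.4% and 14.6%. Their median net log2 fold change was -0.24, where that of all transcripts was -0.0004.

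Of 4 further subunits of the writer complex, Cbll1, the HAKAI subunit, rose by 0.43 (SE 0.13, adjusted p = 0.0106), beside 36.2% of all transcripts called higher. Virma, Zc3h13 and Rbm15b were not called. Virma, the scaffold, had a net log2 fold change of -0.04 (SE 0.10), Rbm15b, the paralog of Rbm15, 0.02 (SE 0.11), and Zc3h13 -0.21 (SE 0.20). Zc3h13 had 79.0 and 141.3 CPM at day 0, a gap of 0.84 in the direction of the gap of Ythdc1. The falls of the core pair were thus not accompanied by called falls of these subunits. Of 5 tested methyltransferases and cofactors outside the complex, 3 were called lower at day 4, beside 36.1% of all transcripts, led by Mettl16, which methylates U6 snRNA and the Mat2a mRNA. Mettl16 had 67.5 and 76.4 CPM at day 0, 26.8 and 26.3 at day 2, and 21.2 and 17.5 at day 4, with no overlap between days. Its net log2 fold change was -1.90 (SE 0.13, adjusted p = 3.43e-07). Mettl5, for ribosomal RNA, changed by -0.55 (SE 0.14, adjusted p = 0.00411) and Pcif1, for the adenosine next to the cap, by -0.49 (SE 0.15, adjusted p = 0.0107), and Mettl4 had 0.22 (SE 0.16, adjusted p = 0.247).

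Of 7 tested further readers, 6 were called lower at day 4, beside 36.1% of all transcripts. Hnrnpa2b1, a nuclear RNA-binding protein, went from 817.0 and 895.2 CPM to 351.0 and 316.0 (log2 fold change -1.36, SE 0.12, adjusted p = 2.31e-06). Hnrnpc, which binds RNA opened by the mark, went from 256.9 and 309.7 CPM to 125.3 and 118.0 (log2 fold change -1.22, SE 0.12, adjusted p = 5.26e-06). Igf2bp2 and Igf2bp3, which stabilise marked mRNAs elsewhere, were barely detected, with 15 and 14 counts at day 0 and 1 and 2 at day 4 for Igf2bp2, and 14 and 15 and then 6 and 3 for Igf2bp3. The others called lower were Fmr1 (-0.69) and Ythdc2 (-0.69), named after their values were seen. Among enzymes of the methyl donor, Ahcy, which removes the product of methylation, fell by 2.46 (SE 0.16, adjusted p = 2.22e-07) and Mat2b by 0.26 (SE 0.10, adjusted p = 0.0364) on the log2 scale. Mat2a, which makes the donor, had 0.28 (SE 0.14, adjusted p = 0.0838), and its TPM relative to Mettl16 was 15.1 and 10.0 times at day 0, 41.4 and 39.2 at day 2, and 51.6 and 62.0 at day 4. Of 3 decay partners of YTHDF2, Rida was called lower (-0.44, SE 0.16, adjusted p = 0.0246), and Cnot1 (-0.20, SE 0.12) and Upf1 (0.08, SE 0.11) were not called. Of 4 nuclear partners of YTHDC1, the splicing factor Srsf3 was called lower (-1.32, SE 0.17, adjusted p = 2.94e-05) and the export receptor Nxf1 higher (0.43, SE 0.11, adjusted p = 0.00474), while Srsf10 (-0.06, SE 0.11) and Cpsf6 (-0.17, SE 0.11) were not called. These lists of donor enzymes and partners are small, and 36.1% of all transcripts were called lower and 36.2% higher at day 4.

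**Figure D5:**
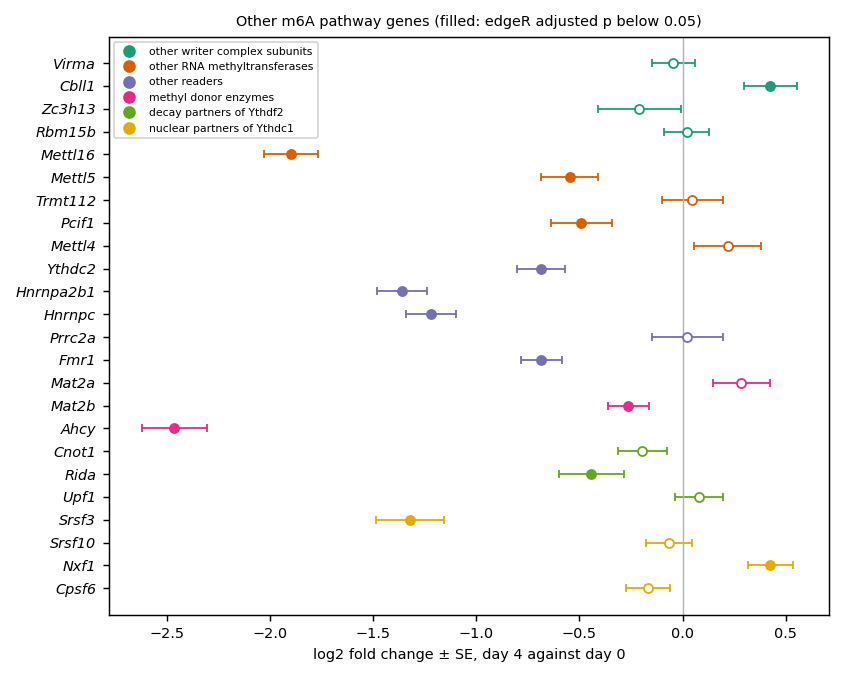
Log2 fold change for day 4 against day 0 (horizontal axis) of other m6A pathway genes with over 20 counts in some library, coloured by role. Bars are 1 standard error and filled points had an edgeR adjusted p below 0.05. Ahcy (-2.46) and Mettl16 (-1.90) lie farthest to the left, and Cbll1 and Nxf1 are the filled points to the right of 0.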

How the data were processed

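Per the labels and the study's methods, TruSeq stranded mRNA libraries were trimmed with cutadapt and aligned to mm10 with TopHat, and HTSeq and DESeq2 are also named in the submitters' processing notes. The authors deposited raw read counts per RefSeq transcript, neither normalized nor pooled, and the counting mode and annotation release are not given in the sources used here. Reads on no feature (50.5% to 58.4% of a library) were left out. Symbols came from RefSeq for 32199 of 32654 transcripts and from GENCODE for 187. The printed sequences were read from GENCODE transcripts of GRCm38.

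The main test was edgeR 4.0.16 in R 4.3.3 with TMM factors (0.921 to 1.07), filterByExpr by day and 1 quasi-likelihood fit of 6 libraries, called at an adjusted p below 0.05. The p-values measure the spread between these cultures of 1 line. TPM used 1 transcript per gene. The fit was tested on simulated data. Alternatives were DESeq2 1.42.0, other scalings and filters, a replicate block, a required log2 fold change of 1, other transcripts, fits of 2 days and leaving out each library, where a lone library is assumed to vary like the other days.

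The members and lists were chosen with earlier results of these data known. All members are named, with up to 4 other pathway genes a list by size of their net change and any untested, and the 3 genes closest in pattern to each of the 3 called members with the largest net change, by Pearson correlation of log2 CPM (prior count 2).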

Additional observations from a re-analysis of the deposited data

How the results depend on the processing

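With 2 cultures per day, 1 library can decide a call, and the smallest change of a member called was 0.33 on the log2 scale (Rbm15, SE 0.11). Leaving out each library in turn gave 1 to 3 members higher and 0 to 4 lower at day 2 than at day 0, 0 to 2 and 0 to 3 from day 2 to day 4, 1 to 4 and 2 to 4 from day 0 to day 4, and 0 to 4 whose steps differed. For the other pathway genes the ranges were 0 to 3 and 7 to 11, 0 to 4 and 1 to 8, and 1 to 4 and 10 to 14. The number of all transcripts called moved as well, so these ranges do not describe the members alone. For day 4 against day 2 it fell whenever a day 2 or day 4 library was left out. For day 2 against day 0 it rose without day 0 replicate 1 and fell without any other library, most without a day 2 library. The share of Ythdf3 with the coding length (15.6%, 24.5% and 27.9%) was added after the data were seen.

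Over all 18351 transcripts, total counts alone gave 7593 higher and 4187 lower at day 2 than at day 0. At day 4 they gave 7436 higher than at day 0. With total counts alone, 5 members were higher and 0 lower at day 2 than at day 0, 4 were higher at day 4 than at day 0 and 2 had differing steps, and 4 other pathway genes were higher at day 2 than at day 0. That last count was 0 with relative log expression factors, DESeq2 and the fit of only 2 days. The steps differed for 0 members with relative log expression factors and DESeq2 and for 3 without the filter on low counts. For day 4 against day 2, DESeq2 gave 2 other genes higher and no filter 3, and the fit of only 2 days gave 2 members and 4 other genes. That fit called 4009 of 18351 transcripts higher, where the main fit called 2682. Requiring a log2 fold change of 1 or more in size left 0 members for each single step, 1 member higher and 0 lower from day 0 to day 4, and 0 with differing steps, and left 0 other genes higher and 4, 1 and 7 lower. Of the 18351 transcripts, the same requirement left 4209, 1082 and 6450 called in these comparisons, and 2884 with differing steps.

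Replicate numbers 1 and 2 recur on each day, and deviations of same-numbered libraries correlated by 0.03, 0.05 and 0.08 over 18351 transcripts. With 1 difference per day and counting noise in each, such low values cannot decide whether same-numbered libraries shared a culture or batch. With the replicate number as a block, 0 members had differing steps (Rbm15 -0.55, adjusted p = 0.0543), 6 rather than 7 other pathway genes were lower for day 4 against day 2, and the other counts were the same. Under the block the log2 fold change of Ythdc1 for day 4 against day 0 turned to 0.029 and the step difference of Ythdf2 to -0.0004.

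Of 598 values of single members, 497 kept direction and call, 40 lost a call and 28 gained one without turning sign. The other 33 turned sign, with or without a call, and include the rises of Ythdc1 without day 0 replicate 2 given above. None of the values called in the main fit turned sign. Those that did, with total counts alone, were the step differences of Mettl3 (-0.25), Ythdf1 (-0.27), Ythdf2 (-0.28), Ythdc1 (-0.012) and Fto (-0.14), Wtap for day 4 against day 2 (-0.0072), Ythdf2 (0.11) and Ythdc1 (0.056) for day 2 against day 0, and Ythdc1 for day 4 against day 0 (0.10). The step differences of Ythdf1 and Ythdf2 were -0.0048 and -0.01 without a filter and -0.0012 and -0.0062 with 1 transcript per gene. With its least counted transcript Wtap had -0.088 from day 2 to day 4 and -0.076 from day 0 to day 4. Leaving out libraries, the step difference ranged from -0.088 to 0.14 for Mettl3, -0.14 to 0.041 for Wtap, -0.16 to 0.16 for Ythdf1, -0.19 to 0.17 for Ythdf2 and -0.25 to 0.65 for Ythdc1, day 2 against day 0 from -0.042 to 0.28 for Ythdf1, -0.26 to 0.10 for Ythdf2 and -0.53 to 0.37 for Ythdc1, and day 4 against day 0 from -0.35 to 0.012 for Ythdf2 and -0.40 to 0.49 for Ythdc1. The causes were not tested.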

Other observations

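Among 12371 genes outside the members, those whose log2 CPM followed each of the 3 most changed members most closely over the 6 libraries were named as a description. For Ythdf3 they were Reep6 and Tmem127 (Pearson correlation 0.999 for both) and 4833420G17Rik (0.999), with net log2 fold changes of 1.29, 1.64 and 0.71. For Mettl14 they were Stk4, a kinase of the Hippo pathway (0.998, net log2 fold change -0.78), Mir1892 (0.997, -1.39) and 5930430L01Rik (0.997, -1.07). For Mettl3 they were Lgals7 (0.998, -2.71), Lrpprc, an RNA-binding protein of mitochondria (0.997, -1.01), and Gars, the glycyl-tRNA synthetase (0.997, -1.73). Such closeness was common, since 2805, 2034 and 2329 genes had a correlation of at least 0.9 with Ythdf3, Mettl14 and Mettl3. The 6 points share their days, and the closest genes were picked from all of these.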
